A study of Mus musculus with 20 samples.

Results

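Acta2, which encodes alpha smooth muscle actin, and Tagln, which encodes transgelin (also called SM22 alpha), were followed through the RNA libraries of 5 groups of mouse cells. They are 2 of the 10334 gene symbols that the deposited expression table names, and each is held by 1 transcript model among the 55419 models counted in every library. The groups, with 2 libraries each, were induced pluripotent stem (iPS) cells in 2i medium, iPS cells in medium with LIF and 15% fetal bovine serum, neural progenitor cells (NPC), embryonic stem (ES) cells of the line V6.5 in 2i medium, and V6.5 ES cells in a pluripotency medium with LIF. All came from the 129SvJae x C57BL/6 background, and the NPC and the iPS cells made from NPC also carried Sox2-eGFP, a green fluorescent reporter. The NPC were taken from whole brains at postnatal day 1, grown as neurospheres with EGF and FGF and then plated on poly-lysine and laminin. Medium 2i is free of serum and holds LIF with CHIR99021, an inhibitor of the kinase GSK3, and PD0325901, an inhibitor of the kinase MEK. All ES and iPS cells had been expanded on inactivated embryonic fibroblasts as feeders and were then moved to gelatin to be rid of them. The labels do not say whether the iPS cells are 1 clone or whether the libraries of a group come from separate cultures; each p-value therefore rests on the spread between these libraries alone, which may be technical.

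Smooth muscle actin polymerises into the filaments that myosin pulls on in vascular and visceral smooth muscle and in the stress fibres of myofibroblasts. Transgelin is a calponin-like protein that binds and bundles those filaments. Both genes are classic targets of serum response factor (SRF), which binds a DNA element named the CArG box and works with the co-activators myocardin and MRTF. In fibroblasts and epithelial cells TGF-beta and serum are known to raise both, and in differentiating pluripotent cultures they are commonly read as markers of mesenchymal cells.

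The libraries held between 1150624 and 17286063 reads assigned to a transcript model, and the 2 libraries of a group correlated at 0.960 to 0.989 over tested models on the log2 scale. The share of reads in no model ran from 26.5% to 86.6%, and was highest in NPC replicate 1 (86.6%) and ES replicate 2 (81.5%). Summed levels of the defining markers stood apart between NPC and the pluripotent groups, though not every marker did. Of the 10 pluripotency genes tested, 8, Pou5f1 and Lin28a among them, had no count in either NPC library, and their summed level was 257 to 261 CPM (counts scaled to library size) in NPC, against 5957 to 8568 CPM in the 4 pluripotent groups. The 9 neural progenitor genes summed to 12195 to 14117 CPM in NPC, against 794 to 2690 CPM in the other groups. Sox2, used by both cell types, was lower in iPS cells than in NPC (log2 change -1.12, adjusted p = 1.07e-07), the neural gene Sox1 was higher (255 ± 20.9 against 90.9 ± 14.9 CPM, adjusted p = 5.03e-10), and the pluripotency gene Esrrb did not pass there (adjusted p = 0.184; SD, n = 2 each).

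Acta2 was counted on the model uc008hgg.1, at chr19:34315580-34329826 in the mouse assembly mm9, and overlapped no other named model. Tagln was counted on uc009pgs.2, at chr9:45737710-45744141, which shares 95 bases at its low-coordinate end with a model of Pcsk7. Pcsk7 averaged at most 1.26 CPM in any group. RefSeq promoter windows (assembly GRCm38.p6, from 250 bases before to 50 bases after the start site) were matched for 12 of the 14 contractile genes named in the deposited table, Acta2 among them. Tagln and Actg2 had no entry in the promoter set used, so no promoter of Tagln was searched. CArG boxes, searched on both strands, marked 2 of those 12 genes when 1 other letter was allowed, namely Acta2 and Myl9, a myosin light chain of smooth muscle. Their windows are printed as those with a CArG match; the capitals mark the matches, and a strict match also counts in the search that allows 1 other letter. The Acta2 window is chr19:34255324-34255623 on the minus strand, and the Myl9 window is chr2:156775214-156775513 on the plus strand.
Acta2: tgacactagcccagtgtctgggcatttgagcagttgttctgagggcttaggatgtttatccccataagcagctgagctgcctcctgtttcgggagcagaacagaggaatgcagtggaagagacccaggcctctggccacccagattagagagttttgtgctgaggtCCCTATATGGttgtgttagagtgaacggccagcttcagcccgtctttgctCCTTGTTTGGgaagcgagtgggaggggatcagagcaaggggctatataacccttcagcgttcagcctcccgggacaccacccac
Myl9: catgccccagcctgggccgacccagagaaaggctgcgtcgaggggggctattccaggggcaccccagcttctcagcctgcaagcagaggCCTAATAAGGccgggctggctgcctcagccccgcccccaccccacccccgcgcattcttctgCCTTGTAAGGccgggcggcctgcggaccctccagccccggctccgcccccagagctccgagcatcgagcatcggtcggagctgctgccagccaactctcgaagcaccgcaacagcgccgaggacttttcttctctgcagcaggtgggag
In the Acta2 window the matches began 84 bases before the start site (CCCTATATGG) and 34 bases before it (CCTTGTTTGG), each with 1 letter outside the strict pattern. In the Myl9 window a strict match began 161 bases before the start site (CCTAATAAGG) and a second match, with 1 other letter, 99 bases before it (CCTTGTAAGG). Among all 32851 mouse promoter windows of that length, 1.629% held a strict match and 9.984% held one with 1 other letter, a version of the search that was chosen after the Acta2 window had been read. The Acta2 window also held CATTCC, the core of the element bound by TEAD factors, on its other strand at 146 bases before the start site; 14.663% of all windows held that word. The means of Myl9, Lmod1 and Cnn1 ran in the order of Acta2, as did those of Actg2, which had no window. Those of the other tested contractile genes, Csrp1, Cald1, Des and Tpm1 among them, did not. No CArG match was found in the windows of Lmod1 and Cnn1, but sequence outside the windows was not searched. The part of CArG boxes in the levels was not tested.

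Acta2 was present in all 10 libraries. The levels were 356 and 376 CPM in iPS 2i cells, 1556 and 1679 CPM in iPS cells, 12.6 and 23.2 CPM in NPC, 158 and 161 CPM in ES 2i cells, and 681 and 829 CPM in ES cells. CPM here are counts scaled by the effective library size of the trimmed mean of M-values (TMM). From the highest group to the lowest the order was iPS, ES, iPS 2i, ES 2i and NPC, with no overlap between any pair of groups. The share of all models that separate in this way was not counted, so the separation is description only. The group means were 366 ± 14.0 CPM in iPS 2i, 1618 ± 86.8 CPM in iPS, 17.9 ± 7.51 CPM in NPC, 159 ± 2.52 CPM in ES 2i and 755 ± 104 CPM in ES (SD, n = 2 each). The NPC values rest on 15 and 80 counts, so their 95% Poisson intervals, which cover counting error only, ran from 7.03 to 20.7 CPM and from 18.4 to 28.8 CPM.

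Tagln kept the same order of groups. Its levels were 135 and 140 CPM in iPS 2i cells, 651 and 763 CPM in iPS cells, 0.837 and 2.03 CPM in NPC, 57.2 and 66.7 CPM in ES 2i cells, and 394 and 422 CPM in ES cells. Again every pair of groups was separate, with the same limit, and NPC stood far below the rest. Mean levels were 137 ± 3.28 CPM in iPS 2i, 707 ± 79.4 CPM in iPS, 1.43 ± 0.842 CPM in NPC, 62.0 ± 6.74 CPM in ES 2i and 408 ± 19.6 CPM in ES (SD, n = 2 each). In NPC only 1 and 7 reads were counted, with Poisson intervals of 0.0212 to 4.66 CPM and 0.815 to 4.18 CPM. At that depth Tagln in NPC is a trace whose size is poorly known. All these are bulk samples, in which fewer cells of a type and less RNA per cell cannot be told apart.

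**Figure D1:**
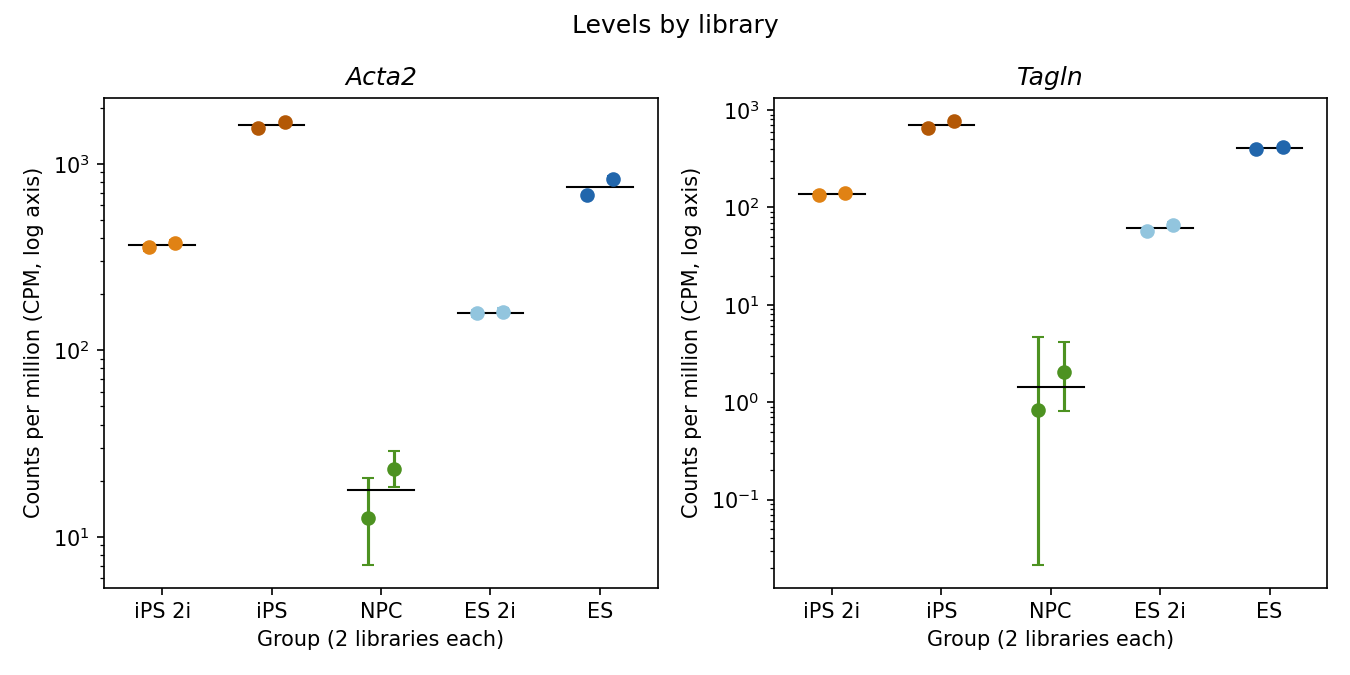
Levels of Acta2 (left) and Tagln (right) in CPM on a log axis, for the 2 libraries of each group; points are libraries, bars their 95% Poisson intervals and black lines the group means. NPC lie at 12.6 and 23.2 CPM for Acta2 and at 0.837 and 2.03 CPM for Tagln, below every other library, and iPS cells lie above every other library.

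The first question was how the contractile pair differs between progenitors and pluripotent cells. Both genes were far lower in NPC than in ES cells: Acta2 fell by 5.24 on the log2 scale (SE 0.19, edgeR quasi-likelihood adjusted p = 1.05e-20) and Tagln fell by 7.71 (SE 0.25, adjusted p = 7.54e-22). In this comparison 33.7% of the 11031 models tested were called lower in NPC, so the call itself is common, while only 0.734% of models had a change as large as that of Tagln and 3.48% one as large as that of Acta2. Over pooled counts scaled to library size, the ratio of NPC to ES was 0.0289 for Acta2 (95% exact interval 0.0234 to 0.0354) and 0.00432 for Tagln (0.00186 to 0.00851). Against ES 2i cells the gap was smaller but of the same direction, with Acta2 lower by a log2 change of -3.00 (SE 0.19, adjusted p = 6.54e-15) and Tagln by -4.99 (SE 0.28, adjusted p = 5.98e-16), where 35.9% of models were called lower and 16.8% and 4.78% changed at least as much as Acta2 and Tagln. Without NPC replicate 2 the log2 changes against ES cells were -5.96 for Acta2 and -8.65 for Tagln, and against ES 2i cells -3.75 and -5.97. Each lies outside its 95% interval in the full fit, which for Tagln against ES cells ran from -8.22 to -7.19. The SEs of these changes therefore understate how uncertain their sizes are.

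Reprogramming of NPC was the second comparison. Tagln was higher in iPS cells than in NPC by 8.50 on the log2 scale (SE 0.25, adjusted p = 5.97e-23) and Acta2 by 6.34 (SE 0.20, adjusted p = 2.30e-22), against 29.3% of all models called higher. The pooled ratio of iPS to NPC was 414 for Tagln (95% exact interval 210 to 959), an interval set by the 8 reads of Tagln in NPC, and 79.4 for Acta2 (64.9 to 98.2). In 2i medium the iPS cells also stood above NPC, by 4.20 for Acta2 (SE 0.19, adjusted p = 1.97e-18) and 6.14 for Tagln (SE 0.27, adjusted p = 9.19e-19), with 33.4% of models called higher. Of the 11031 models, 0.508% changed as much as Tagln did between iPS cells and NPC and 1.53% as much as Acta2, and in iPS 2i cells against NPC 2.30% and 7.42% did. Without NPC replicate 2 the values against NPC were 6.97 for Acta2 and 9.34 for Tagln in iPS cells, and 4.89 and 7.05 in iPS 2i cells. Each lies outside its 95% interval in the full fit, which for Tagln in iPS cells ran from 7.99 to 9.01. The SEs given here therefore understate how uncertain the sizes are.

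iPS cells also exceeded ES cells. Outside 2i, Acta2 was higher in iPS cells by a log2 fold change of 1.10 (SE 0.14, adjusted p = 7.72e-08), or 2.14 times the ES mean, and Tagln by 0.79 (SE 0.13, adjusted p = 4.99e-06), or 1.73 times. Here 25.9% of models were called higher, and 32.0% and 46.8% of models differed at least as much as Acta2 and Tagln, so the size of the difference was ordinary for this pair of groups. In 2i medium the difference was of like size, 1.20 for Acta2 (SE 0.14, adjusted p = 1.77e-07) and 1.15 for Tagln (SE 0.13, adjusted p = 1.48e-07). Fewer models moved there, with 13.7% called higher, and 6.29% and 7.09% of models differed at least as much. The iPS cells in LIF and serum stood further above ES 2i cells, by 3.34 for Acta2 and 3.51 for Tagln (adjusted p = 5.35e-18 and 3.33e-19), where 28.7% of models were called higher and 4.03% and 3.40% differed as much. Conversely, iPS 2i cells stayed below ES cells, by a log2 change of -1.04 for Acta2 and -1.57 for Tagln (adjusted p = 9.75e-07 and 1.20e-10), where 16.5% of models were called lower and 15.6% and 6.47% differed as much. With the deposited log2 values in limma in place of counts, the Acta2 difference of iPS 2i cells from ES cells (adjusted p = 0.0505) and from ES 2i cells (adjusted p = 0.0556) missed the threshold of 0.05.

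Medium 2i lowered the pair in both cell types. Acta2 fell by 2.14 on the log2 scale in iPS 2i cells against iPS cells (SE 0.14, adjusted p = 2.79e-13) and by 2.24 in ES 2i cells against ES cells (SE 0.15, adjusted p = 2.04e-13). Tagln fell by 2.36 in iPS cells (SE 0.14, adjusted p = 6.82e-15) and by 2.71 in ES cells (SE 0.14, adjusted p = 1.10e-15). As group means, Acta2 was 4.41 times lower in iPS 2i than in iPS and 4.74 times lower in ES 2i than in ES, and Tagln was 5.14 and 6.58 times lower in the same comparisons. In iPS cells 21.5% of models were called lower in 2i, and in ES cells 13.2%. A change as large as that of Tagln was seen in 4.91% of models in iPS cells and 1.37% in ES cells, and one as large as that of Acta2 in 6.55% and 2.35%. The response of iPS cells minus that of ES cells was 0.10 for Acta2 (95% interval -0.30 to 0.50, adjusted p = 0.762) and 0.35 for Tagln (-0.02 to 0.73, adjusted p = 0.160). Neither passed the threshold, although 27.3% of all models did in either direction, and the intervals leave room for differences of up to about those bounds.

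**Figure D2:**
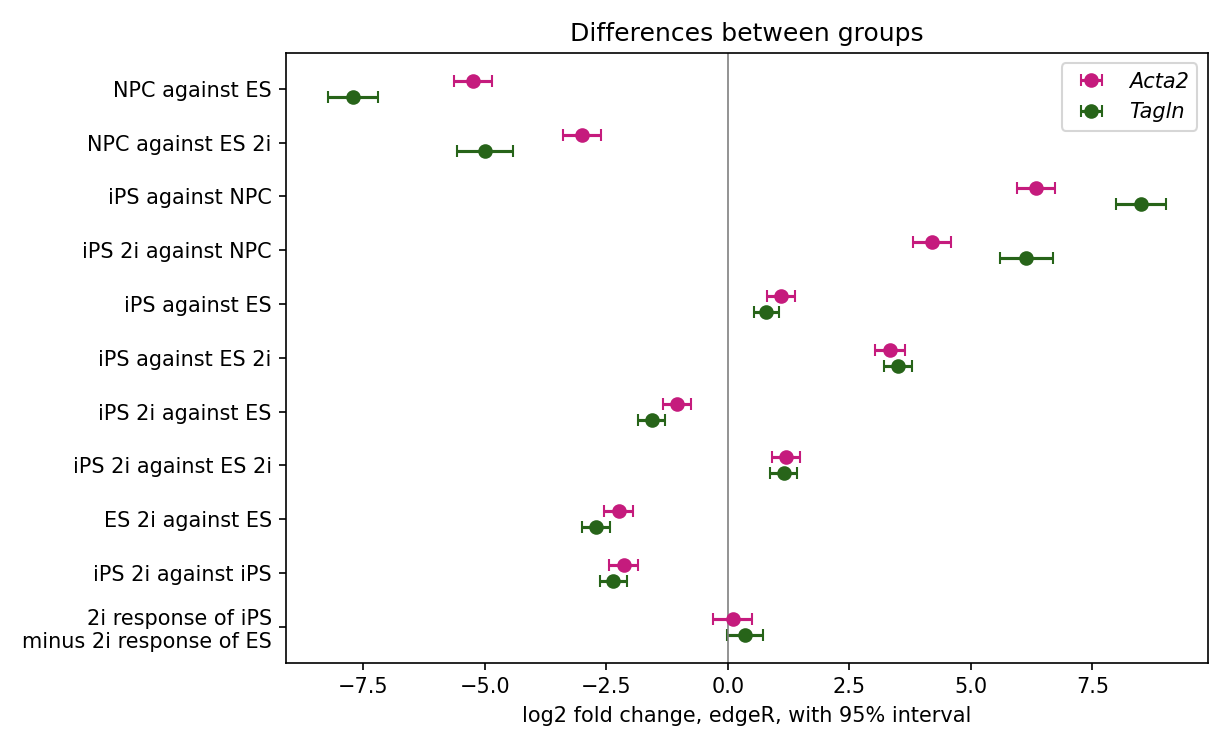
Fitted log2 fold changes of Acta2 and Tagln for each comparison of groups, the first-named group over the second. Bars are 95% intervals built from the fold change and F statistic of edgeR. The last line is the response of iPS cells to 2i minus that of ES cells. Every interval but those of the last line lies away from 0, and the comparisons that involve NPC show the widest gap between the genes.

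The genes did not keep a fixed ratio. Acta2 counts per Tagln count within a library were 2.64 and 2.69 in iPS 2i cells, 2.39 and 2.20 in iPS cells, 15.0 and 11.4 in NPC, 2.75 and 2.41 in ES 2i cells, and 1.73 and 1.97 in ES cells. NPC had the highest ratios, with wide 95% exact intervals of 2.31 to 631 and 5.30 to 29.3, and ES cells the lowest. Across the 5 groups the log2 ratio varied more than within them, by an exact permutation test over all 945 ways to split 10 libraries into pairs (p = 0.00529, smallest possible 0.00106). The test treats all libraries alike, although the NPC ratios, which lie furthest out, rest on 1 and 7 Tagln reads. It was not run without NPC. Since transcript length is the same in every library, the ratio can be compared between groups, but it does not say which gene had more transcripts.

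**Figure D3:**
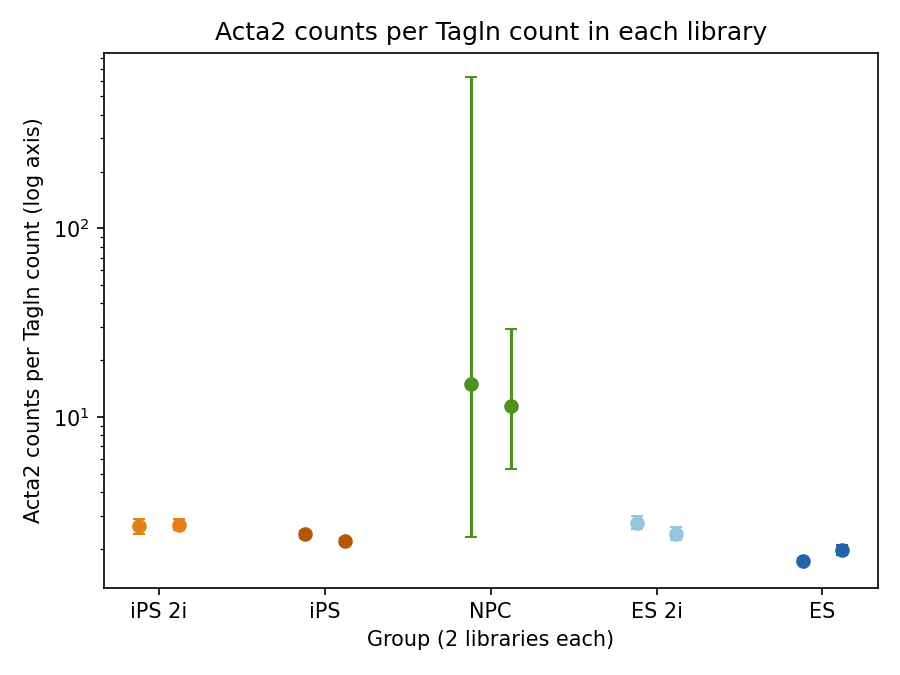
Acta2 counts per Tagln count in each library, on a log axis, with 95% exact intervals. The iPS 2i, iPS and ES 2i libraries lie between 2.20 and 2.75, the NPC libraries at 15.0 and 11.4 with wide intervals, and the ES libraries at 1.73 and 1.97.

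Other genes of the smooth muscle contractile apparatus were listed with the pair. Of 16 genes listed, 13 were tested, Acta2 and Tagln included; Myh11, Tpm2 and Pdlim7 were not. Leaving the pair out, 8 of the other 11 fell and 2 rose in NPC against ES cells (33.7% of all models were called lower and 27.3% higher), with a median log2 change of -2.97, against -0.20 over all models. In iPS cells against NPC, 7 of the 11 rose and 1 fell (29.3% and 22.0% of models), and in iPS cells against ES cells 6 rose and 2 fell (25.9% and 26.9%). In 2i medium, iPS cells against ES cells gave 4 that rose and 1 that fell (13.7% and 11.6%). That last count depended on the fit: with the pair included 7 of the 13 passed, against 4 without iPS 2i replicate 1 and 2 with limma.

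In 2i medium Csrp1, Myl9, Cald1, Actg2, Lmod1 and Cnn1 fell in both cell types. In iPS 2i cells against iPS cells, 7 of the 11 fell and 1 rose (21.5% and 21.1% of models), with a median of -1.53 against 0.03 over all models. In ES 2i cells against ES cells, 6 of the 11 fell and none rose (13.2% and 11.3% of models), with a median of -0.95 against 0.00. Myl9 fell by 1.70 in iPS cells (SE 0.14, adjusted p = 1.37e-11) and by 1.35 in ES cells (SE 0.13, adjusted p = 2.93e-09). Csrp1, an actin-associated LIM protein, fell by 1.53 and by 0.95 in the same comparisons (adjusted p = 3.20e-11 and 7.12e-07). Des, the muscle intermediate filament desmin, went the other way in iPS cells, with a log2 change of 1.06 (SE 0.18, adjusted p = 1.12e-05), while in ES cells it was -0.19 (SE 0.17, adjusted p = 0.460). Tpm1, a tropomyosin that stiffens actin filaments, passed the test in neither cell type, at -0.11 and -0.09 (adjusted p = 0.814 and 0.824). Its group means were only 4.14 to 9.45 CPM, on 1 transcript model that may hold only part of the gene's reads. Cald1, the actin-binding caldesmon, had its highest mean in NPC, at 45.2 ± 2.42 CPM, against 16.4 ± 2.11 to 37.5 ± 7.91 CPM in the other groups (SD, n = 2 each), but NPC against ES cells did not pass (log2 change 0.22, adjusted p = 0.373).

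**Figure D4:**
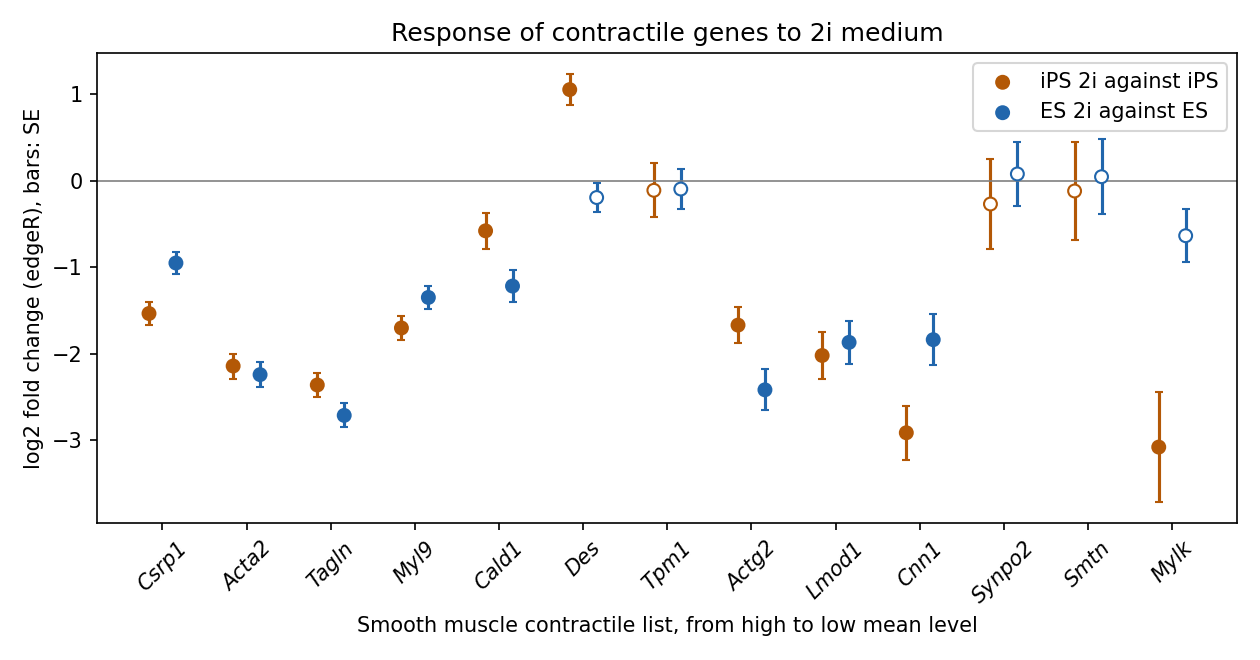
Fitted log2 fold changes in 2i medium for the 13 tested genes of the contractile list, iPS cells in brown and ES cells in blue; bars are standard errors, and filled points have an adjusted p below 0.05. Acta2 and Tagln lie between -2.14 and -2.71 in both cell types, and Des in iPS cells is the filled point above 0.

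Of the 6 actin isoforms, Acta2, Actg2 and Acta1 fell in NPC against ES cells, where 33.7% of all models fell. Actb and Actc1 rose, where 27.3% of models did, and Actg1 did not pass (-0.26, adjusted p = 0.0827). Leaving Acta2 out, 2 of the other 5 fell and 2 rose. With limma 3 of the 6 passed in place of 5. Actg2, the gamma actin of visceral smooth muscle, had no count in NPC and stood at 10.7 and 11.4 CPM in the iPS 2i libraries, with means of 35.7 ± 2.30 CPM in iPS cells, 2.26 ± 0.349 CPM in ES 2i cells and 13.5 ± 1.81 CPM in ES cells (SD, n = 2 each), so its groups ran in the same order as those of Acta2. Acta1, the skeletal actin, averaged 0.145 ± 0.205 CPM in NPC, against 37.2 ± 0.324 CPM in ES cells. Actb, cytoplasmic beta actin, was slightly higher in NPC than in ES cells, by 0.31 on the log2 scale (adjusted p = 0.0297). In 2i all 6 isoforms fell in iPS cells (21.5% of all models did) and 4 fell in ES cells (13.2%). In ES cells Actb (-0.22, adjusted p = 0.211) and the cardiac isoform Actc1 (-0.09, adjusted p = 0.954) did not pass. Actc1 was near the floor there, at 0.599 ± 0.571 CPM in ES 2i and 0.883 ± 0.614 CPM in ES (SD, n = 2 each). Reads of near-identical actin sequences may be shared or dropped in mapping, so the levels of single isoforms are uncertain.

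The other transgelin genes were higher in NPC than in ES cells. Tagln2, a broadly expressed transgelin, was higher in NPC than in ES cells (411 ± 45.5 against 306 ± 9.82 CPM, adjusted p = 0.00380), and so was the neuronal transgelin Tagln3 (21.4 ± 2.98 against 6.00 ± 1.04 CPM, adjusted p = 3.71e-06; SD, n = 2 each). In iPS cells, at 436 ± 9.78 CPM, Tagln2 did not differ from NPC past the threshold (log2 change 0.08, adjusted p = 0.632). Cnn1, the smooth muscle calponin, had no count in NPC and averaged 17.9 ± 1.23 CPM in iPS cells, against 5.45 ± 1.74 CPM in ES cells (adjusted p = 1.37e-05). Tagln was the only 1 of the 5 tested transgelin and calponin genes to pass upward in iPS 2i cells against ES 2i cells, where 13.7% of models passed. All 5 fell in ES 2i cells against ES cells, where 13.2% of models fell. Of 14 tested genes of non-muscle actomyosin and stress fibres, 5 rose and 5 fell in NPC against ES cells (27.3% and 33.7% of models). In 2i medium 7 of the 14 fell in iPS cells (21.5% of models) and 4 in ES cells (13.2%), with none higher (21.1% and 11.3%).

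The pathways known to drive the pair were read from lists of SRF and MRTF genes and of TGF-beta genes. The lists overlap, so their counts are not independent. Myl9, Cnn1 and Tpm1 of the SRF and MRTF list are also contractile genes, Actb is also an actin and Ctgf also a TGF-beta gene. Of 15 tested SRF and MRTF genes, 12 fell and none rose in iPS 2i cells against iPS cells (21.5% and 21.1% of all models), and 10 fell and 1 rose in ES 2i cells against ES cells (13.2% and 11.3%). Those 11 calls became 7 with limma and 7 among models with a mean of at least 50 counts. The 1 that rose was Srf itself, by 0.42 (adjusted p = 0.0289). Srf averaged 160 ± 5.25 CPM in iPS 2i cells, 278 ± 17.4 CPM in iPS cells, 231 ± 4.72 CPM in NPC, 139 ± 21.1 CPM in ES 2i cells and 106 ± 22.6 CPM in ES cells (SD, n = 2 each). Its groups did not run in the order of the pair, and it was higher in NPC than in ES cells, by 1.15 (adjusted p = 6.14e-08). In NPC against ES cells the list split, with 7 higher and 8 lower (27.3% and 33.7% of models). The higher ones included the immediate early genes Fos and Jun, by 2.57 and 3.13, and the lower ones Ctgf and Myl9, by log2 changes of -4.04 and -3.28.

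Of 15 tested TGF-beta genes, 10 fell and 3 rose in NPC against ES cells (33.7% and 27.3% of all models), and 10 rose and none fell in iPS cells against NPC (29.3% and 22.0%). Those 13 calls in NPC against ES cells became 8 among models with a mean of at least 50 counts. In iPS cells against ES cells 6 rose and 4 fell (25.9% and 26.9%), but 6 passed in place of 10 without iPS replicate 1 and with DESeq2. In 2i, 9 fell and 1 rose in iPS cells (21.5% and 21.1%), and 8 fell and none rose in ES cells (13.2% and 11.3%). Pmepa1, a feedback inhibitor of the pathway, passed at 0.68 in iPS cells against ES cells and 0.72 in 2i (adjusted p = 2.99e-04 and 5.44e-04). It was 1 of the 6 that rose in the first comparison, where 4 other genes fell. In 2i it was 1 of 3 that rose, with none lower (13.7% and 11.6% of models). With limma 0 of the TGF-beta genes passed in 2i, so the list shows no uniform shift between iPS and ES cells.

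Markers of cells that express the pair in the body, and of the feeder cells, were read beside it. Of 20 fibroblast genes 12 were tested, and their summed level was 635 to 639 CPM in iPS 2i cells, 1023 to 1071 CPM in iPS cells, 214 to 244 CPM in NPC, 341 to 343 CPM in ES 2i cells and 322 to 330 CPM in ES cells. Twist2 had no count in NPC, and no fibroblast gene tested was at 0 in both libraries of another group. In iPS cells against ES cells, where Acta2 and Tagln rose, 7 of the 12 rose and 1 fell (25.9% and 26.9% of all models). In 2i 9 rose and none fell (13.7% and 11.6%), and 4 passed there with limma. Col1a1, a fibrillar collagen, averaged 224 ± 50.6 CPM in iPS cells, against 40.3 ± 4.41 CPM in ES cells (SD, n = 2 each). The part of the fibroblast genes in the higher levels of iPS cells was not tested. In ES 2i cells against ES cells, where the pair fell to 0.211 and 0.152 of the ES mean, the fibroblast sum was 1.05 times the ES mean, with 3 of 12 genes higher and 5 lower (11.3% and 13.2% of models) and a median log2 change of -0.57. That sum rested on the collagen gene Col3a1, higher in ES 2i cells (116 ± 0.335 against 17.4 ± 2.56 CPM, adjusted p = 1.66e-14); without it the other 11 genes summed to 0.733 of the ES mean. Col1a1 did not pass there (42.2 ± 3.36 against 40.3 ± 4.41 CPM, adjusted p = 0.734). Other fibroblast genes fell with the pair, among them S100a4 (3.06 ± 0.0132 against 50.4 ± 6.07 CPM, log2 change -3.95, adjusted p = 1.65e-15) and Thy1 (7.51 ± 0.983 against 35.5 ± 1.25 CPM, log2 change -2.20, adjusted p = 5.69e-11), with Twist2 at -2.98 (adjusted p = 6.10e-07). The part of these genes in the fall of the pair was not tested. In iPS 2i cells against iPS cells 9 of the 12 fell and 1 rose (21.5% and 21.1%), and the sums were 635 to 639 CPM, against 1023 to 1071 CPM.

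**Figure D5:**
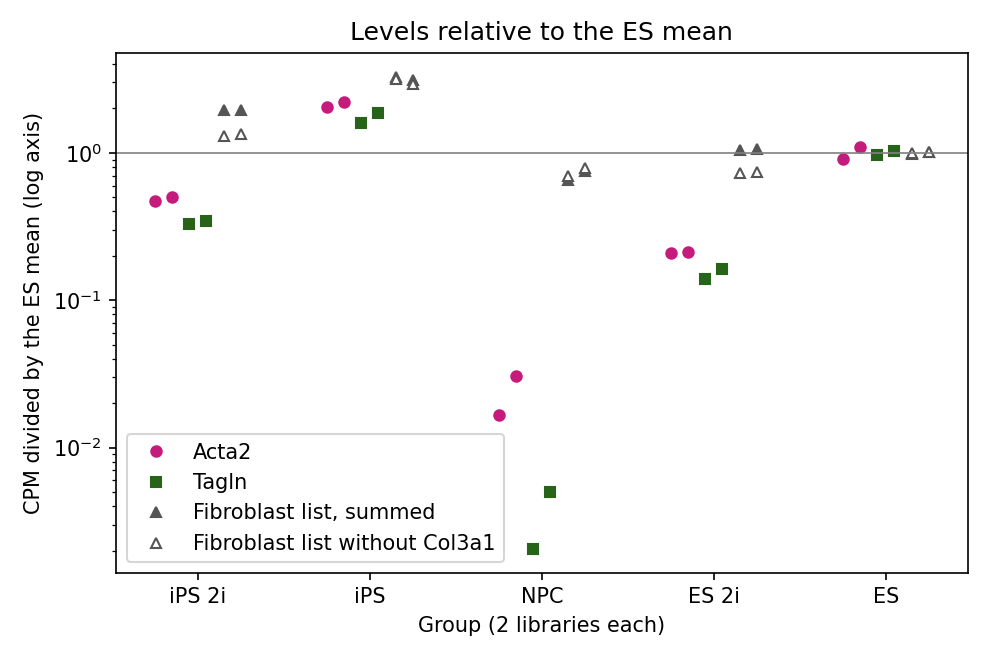
CPM of Acta2, of Tagln and summed over 12 fibroblast genes in each library, each divided by its own mean in ES cells, on a log axis. Open triangles leave out Col3a1. In ES 2i cells the fibroblast sum lies at 1.05 with Col3a1 and 0.733 without it, while Acta2 and Tagln lie at 0.211 and 0.152; in iPS cells the fibroblast sums lie at 3.21 and 3.04, Acta2 at 2.14 and Tagln at 1.73.

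Marker lists of other cell types were only partly covered by the genes tested, so they say little about which cells were present. Mural cell markers gave 2 tested of 10, Cspg4 and Notch3, with sums of 53.7 to 59.9 CPM in iPS 2i, 133 to 157 CPM in iPS, 122 to 165 CPM in NPC, 24.5 to 30.9 CPM in ES 2i and 40.0 to 48.5 CPM in ES. NPC, lowest for the pair, were among the highest here, but whether these 2 genes mark mural cells in NPC was not tested. Cardiac and skeletal muscle markers, with 8 tested of 17, summed to 21.9 to 25.8 CPM in iPS 2i cells, 59.0 to 62.6 CPM in iPS cells, 13.4 to 20.3 CPM in NPC, 13.8 to 17.1 CPM in ES 2i cells and 45.9 to 46.3 CPM in ES cells. Endothelial markers, with 2 tested of 8, summed to at most 5.96 CPM in any library. Endoderm markers, with 7 named of 12, summed to 130.2 to 136 CPM in iPS 2i cells, 334 to 342 CPM in iPS cells, 90.1 to 104 CPM in NPC, 173 CPM in both ES 2i libraries and 372 to 399 CPM in ES cells. Like the pair, the muscle and endoderm sums were lower in 2i than outside it in both cell types, but single genes were mixed. In ES cells 1 of 8 muscle genes rose and 1 fell, and none of 5 tested endoderm genes rose and 4 fell (11.3% and 13.2% of models). In iPS cells 1 muscle gene rose and 3 fell, and 2 endoderm genes rose and 2 fell (21.1% and 21.5%). The muscle gene that fell in ES cells was Acta1, at 3.71 ± 0.905 CPM in ES 2i against 37.2 ± 0.324 CPM in ES (SD, n = 2 each). The part of these markers in the levels of the pair was not tested.

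The genes most like each member were ranked by Pearson correlation of log2 CPM over the 10 libraries, among 4944 named genes with a mean of at least 3 log2 CPM. The libraries fall into 5 groups, so these values describe a shared order of groups and carry no p. For Acta2 the nearest was Ngfr, the p75 neurotrophin receptor (r = 0.998), followed by the calcium-binding protein gene S100a6 (0.995) and Maea (0.994), with Tagln 4th (0.992). For Tagln the nearest were the matrix protein gene Thbs2 (0.995), the tight junction gene Cldn6 (0.995) and the keratin gene Krt8 (0.994), with Acta2 5th (0.992). Ngfr, Perp, Krt8 and Cldn6 stood among the 10 nearest of both. Ngfr averaged 54.2 CPM in iPS 2i, 314 CPM in iPS, 1.72 CPM in NPC, 24.7 CPM in ES 2i and 128 CPM in ES. Krt8 had no count in NPC and averaged 41.1 CPM in iPS 2i, 523 CPM in iPS, 24.3 CPM in ES 2i and 208 CPM in ES. Maea and Ddb1 shared the order over a much narrower range, Maea averaging 197 CPM in iPS cells and 87.9 CPM in NPC.

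The immediate neighbours of Acta2 ran the other way in NPC. Stambpl1, whose model ends 0.762 kb from that of Acta2, averaged 3.12 ± 0.319 CPM in NPC, against 0.328 ± 0.0916 CPM in ES cells (SD, n = 2 each), a log2 change of 2.44 (adjusted p = 0.00110). Fas, the death receptor gene 35.3 kb away on the other side, averaged 3.72 ± 1.71 CPM in NPC, against 0.760 ± 0.0426 CPM in ES cells, a log2 change of 2.15 (adjusted p = 0.00152). Ch25h, a cholesterol hydroxylase gene 218 kb away, was low but its means ran in the order of Acta2, at 0.408 CPM in iPS 2i, 2.80 CPM in iPS, 0 CPM in NPC, 0.222 CPM in ES 2i and 1.65 CPM in ES. It fell in ES 2i against ES cells by 1.97 (adjusted p = 0.00201) and in iPS 2i against iPS cells by 2.25 (adjusted p = 0.00138), while iPS against ES cells did not pass (adjusted p = 0.177). Near Tagln, Pafah1b2, a subunit of a lipid hydrolase 29.3 kb away, averaged 294 CPM in iPS cells, its highest group, and 178 CPM in NPC, its lowest, and did not pass between NPC and ES cells (log2 change -0.25, adjusted p = 0.119).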

How the data were processed

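RNA was read from 10 libraries; the 10 chromosome conformation (5C) libraries of the series were not used, since neither gene lies in a region they cover. Libraries were made from 350 ng of total RNA with a stranded kit that removes ribosomal RNA, per the labels' protocols. Raw counts for each transcript model were deposited by the authors. The submitters' processing notes name TopHat2 2.1.0, HTSeq and mm9; how ambiguous reads and strand were handled was not given in the sources used here. A deposited table of log2 values gave symbols and positions; it equals log2(count + 1) plus 1 constant per library, found from the values. Counts in no model (26.5% to 86.6% of reads) or ambiguous (6.00% to 35.6%) and 92 spike-in entries stayed out of library sizes. Each gene symbol was read on 1 transcript model, that with the highest mean count. Reads of its other models, or ambiguous between models, are not in its level, which may be only part of the gene's.

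Counts were fitted with edgeR 4.0.16 in R 4.3.3: filterByExpr (11031 models kept, 44388 left out), TMM scaling, a prior count of 2, the quasi-likelihood F test with group as the only term over all 10 libraries, and Benjamini-Hochberg adjustment over all models at 0.05. The biological coefficient of variation was 0.117. Alternatives were DESeq2 1.42.0, limma 3.58.1 on the deposited log2 values, other scalings and filters, libraries left out and a replicate block. Scripts were checked on simulated counts.

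The members and the 13 gene lists were chosen with earlier results of these data known. Genes are named by a rule: from each list all tested members, or the 8 with the highest mean level where more were tested; the 10 genes most like each member; and the 3 nearest named genes on each side. Lmod1, Twist2, S100a4, Esrrb, Myh11, Tpm2 and Pdlim7 are named outside it, as small counts, absent members or exceptions to a list's sum, chosen after their values were seen. Not every gene that the rule names is reported here.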

Additional observations from a re-analysis of the deposited data

Results flagged for a closer look

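Among the named contractile and actin genes, 6 had a response to 2i that differed between iPS and ES cells by the test of that difference (edgeR, adjusted p below 0.05), while Acta2 and Tagln did not; 27.3% of all models passed that test. Each value is the log2 response of iPS cells minus that of ES cells. For Des it was 1.25 (1.06 in iPS cells, -0.19 in ES cells, adjusted p = 2.58e-04), and for Actc1 -4.35 (-4.44 in iPS cells, -0.09 in ES cells, adjusted p = 2.58e-04). Actc1 was near the floor, at 0 and 0.101 CPM in the iPS 2i libraries. It stood at 1.00 and 0.195 CPM in ES 2i, 0.449 and 1.32 CPM in ES, and 7.63 and 5.28 CPM in iPS. The size of its difference is therefore poorly known. Acta1 gave 0.94 (-2.30 and -3.24, adjusted p = 0.0167) and Actg1 0.55 (-1.16 and -1.71, adjusted p = 0.0231). Actb gave -0.51 (-0.72 and -0.22, adjusted p = 0.0270) and Csrp1 -0.58 (-1.53 and -0.95, adjusted p = 0.0140). With 1 library left out, 1 of the 13 contractile genes passed in place of 2 without ES replicate 1, ES 2i replicate 2, iPS replicate 1, iPS replicate 2 or iPS 2i replicate 2. Of the actins, 1 passed without iPS replicate 1 and 2 without ES 2i replicate 2, iPS replicate 2 or iPS 2i replicate 1, in place of 4. With limma on the deposited log2 values, none of the contractile or actin genes passed (0 of 13 and 0 of 6).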

How the results depend on the processing

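Of 420 refits of the 20 pairwise log2 fold changes (21 alternatives each), 418 kept direction and side of the threshold; 1 of the 21, a smaller prior count added after seeing the data, changes fold changes only and cannot change a call. The exceptions were Acta2 with limma on the deposited log2 values, at -0.995 in iPS 2i against ES (adjusted p = 0.0505) and 1.164 in iPS 2i against ES 2i (adjusted p = 0.0556); the cause was not tested. Without NPC replicate 1 and ES replicate 2 together, the Acta2 difference in 2i response was -0.009 (adjusted p = 1). With 1 library left out, it was 0.037 to 0.236 for Acta2 and 0.241 to 0.472 for Tagln. NPC replicate 2 weighed most: without it the log2 change in NPC against ES was -5.96 for Acta2 and -8.65 for Tagln. The other scalings moved the median of all models by at most 0.062 in size.

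Counts of models called were less stable. A mean of at least 50 counts left 4359 in NPC against ES (6729 under the chosen settings), 4532 in NPC against ES 2i (7163), 3733 in iPS against NPC (5663) and 4165 in iPS 2i against NPC (6551); fewer models were tested. DESeq2 called 1668 in ES 2i against ES (2705). With limma the counts were 1337 in iPS 2i against ES (3617), 465 in iPS 2i against ES 2i (2794), 902 in ES 2i against ES (2705), 2979 in iPS 2i against iPS (4701) and 746 for the difference in 2i response (3011). With 1 library left out the ranges were 2082 to 3749 in iPS 2i against ES (lowest without ES replicate 1), 1803 to 2729 in ES 2i against ES (lowest without ES replicate 1), 1469 to 3127 in iPS 2i against ES 2i (lowest without ES 2i replicate 1) and 2003 to 3174 for the difference in 2i response (lowest without iPS replicate 1). Counts of list members called kept within 1.5 times in 1111 of 1155 refits of 5 lists.

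Same-numbered libraries correlated at -0.08 to 0.072 after group means, so the numbers do not pair them; the deposited counts of iPS replicate 2 also carry another replicate number than its label, so its number is in doubt. Chosen after seeing the data, leaving Col3a1 out took the fibroblast sum of ES 2i cells to 0.733 of the ES mean, against 1.05 with it. With a replicate block, the NPC against ES change was -5.27 for Acta2 and -7.75 for Tagln, and 6613 models were called. Depth limits Tagln in NPC, and 2 libraries a group limit every SD.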
